A study of Mus musculus with 10 samples.

Results

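The interferon-induced transmembrane (Ifitm) genes examined here were Ifitm1, Ifitm2, Ifitm3 and Ifitm6, which are 4 of the 50600 genes listed for each library. They were chosen by gene symbol with their levels in the same libraries, in TPM (reads scaled to transcript length and to the library), already known, so those levels and the differences between them are described and not tested. All 4 were among the 15011 genes with a mean of at least 1 TPM over the libraries. Mouse embryonic fibroblasts (MEFs) carrying an Oct4-GFP reporter came from E13.5 embryos of the strain CBA/CaJ X C57BL/6J. They were infected with retroviruses made in PlatE packaging cells and cultured in iCD1, a chemically defined medium for reprogramming. Both arms received Oct4, Klf4 and Sox2 (OKS), a set of transcription factors that turns fibroblasts into induced pluripotent stem cells. The arm called OKS + FoxO6 also received the forkhead factor FoxO6, and the control arm, labelled OKS+DR, received the red fluorescent protein DsRed. The series asked what FoxO6 does during reprogramming, and bulk RNA was sequenced once in each arm at days 0, 1, 3, 5 and 7, which gave 10 libraries and no replicates. The 5 libraries of an arm may come from 1 infected culture, which the labels do not state.

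Ifitm proteins are small membrane proteins that sit in the plasma membrane and in endosomes and hinder the fusion of many enveloped viruses with the cell. Ifitm3 is the best known antiviral member and is also called Fragilis in mouse embryos, where Ifitm1 and Ifitm3 are expressed by primordial germ cells. Interferons switch on many of these genes through transcription factors that bind the interferon-stimulated response element (ISRE) or the gamma-activated site (GAS).

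The libraries held between 1208379 and 2225750 expected counts (median 1601151). Foxo6 was at 0.61 to 2.29 TPM in the 5 OKS + DsRed libraries, from 1 to 4 reads. In the 5 OKS + FoxO6 libraries it was at 762.11 to 1356.41 TPM, with no overlap. The libraries thus matched the arm in their labels, while the level of Foxo6 does not check the day. Foxo6 was already at 1017.2 TPM in the OKS + FoxO6 library of day 0. Fibroblast identity was checked with 10 markers, all of which were detected in every library. Their summed level was 4249.9 TPM at day 0 and 713.74 TPM at day 7 in OKS + DsRed, and 4066.8 and 1185.95 TPM in OKS + FoxO6. The gap of day 7 lay mostly in Col1a2, a collagen gene, at 261.51 and 757.61 TPM. At day 5 the sums were 840.63 and 1705.79 TPM. On the log2(TPM + 1) scale, the median difference of the 10 markers between the arms was 0.46, -0.08, 0.56, 0.22 and 0.05 at days 0, 1, 3, 5 and 7. At days 3, 5 and 7, 3, 3 and 2 markers were more than 2-fold higher with FoxO6, and 1, 0 and 0 lower. Of all genes, 8.21%, 10.3% and 8.30% were higher and 11.8%, 11.4% and 16.5% lower on these days. In bulk RNA, fewer cells of a type and less RNA per cell cannot be told apart.

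The 4 genes lie within 63088 bases of chromosome 7, at chr7:140954837-141017924 of GRCm38 in the GENCODE M21 annotation. Ifitm2 (ENSMUSG00000060591) spans chr7:140954837-140955987 on the minus strand, and Ifitm1 (ENSMUSG00000025491) follows at chr7:140967221-140969825 on the plus strand. Ifitm3 (ENSMUSG00000025492) spans chr7:141009586-141010770 and Ifitm6 (ENSMUSG00000059108) spans chr7:141015699-141017924, both on the minus strand. Ifitm1 was thus the member read in the opposite direction to the other 3. Ifitm2 and Ifitm3 each have 1 annotated transcript, of 655 and 678 bases, and 2 exons. Ifitm1 and Ifitm6 have 3 transcripts each.

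To show what the starts of these genes share and where they differ, the RefSeq windows of GRCm38.p6 from 250 bases before to 50 bases after each gene start were searched on both strands for an ISRE (GAAA, any 2 bases, GAAA), a GAS (TTCNNNGAA) and a forkhead motif (GTAAACA). Of 32851 such windows, 3.44% held the ISRE, 8.30% the GAS and 3.65% the forkhead motif. Each matching stretch of 30 bases is printed 5′ to 3′ on the strand of its gene, with the motif in capitals.
Ifitm2 ISRE, chr7:140955988-140956017: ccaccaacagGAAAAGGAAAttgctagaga
Ifitm3 ISRE, first match, chr7:141010723-141010752: caaaattcagGAAAAGGAAActtctgagaa
Ifitm3 ISRE, second match, chr7:141010706-141010735: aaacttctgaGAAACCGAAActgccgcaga
Ifitm3 GAS, chr7:141010713-141010742: gaaaaggaaacTTCTGAGAAaccgaaactg
Ifitm6 GAS, chr7:141016884-141016913: cccatatgaacTTCCTTGAAacaagagctt
Ifitm1 forkhead motif, chr7:140968096-140968125: aagcacaccaaattGTAAACAtaaggaagt

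Positions are counted from the first base of the gene in RefSeq, which is 1, with bases before it negative. The windows of Ifitm1 and Ifitm6 did not reach every GENCODE transcript start of these genes. Those at chr7:140967221 for Ifitm1 and chr7:141017924 for Ifitm6 lay outside and were not searched, so the windows of the members were not placed alike. Ifitm2 held 1 ISRE, which began at position -46, outside its annotated transcript. Ifitm3 held 2, which began at positions 3 and 20 in the 5′ untranslated part of its transcript, and its GAS began at position 14 and overlapped the second ISRE. The first ISRE of Ifitm3 and that of Ifitm2 had the same letters, GAAAAGGAAA. The window of Ifitm1 held neither an ISRE nor a GAS, and its forkhead motif began at position 35. That position is untranslated exon in 1 annotated Ifitm1 transcript and intron in the other 2. The Ifitm6 window held the GAS alone, at position -10 from the RefSeq start. In the GENCODE annotation this site is untranslated exon in 1 Ifitm6 transcript and intron in the other 2. A match to these letters is not evidence of binding, and a window without a match leaves other sites of the gene unexamined.

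The members are close relatives, which matters for counting short reads. Over the aligned coding bases, Ifitm1 was 82.1% identical to Ifitm2 and to Ifitm3, Ifitm2 was 80.9% identical to Ifitm3, and Ifitm6 was between 65.7% and 68.8% identical to the others. Of the 50-base stretches of each gene's transcripts, 53 of 1056 in Ifitm1, 294 of 606 in Ifitm2, 63 of 629 in Ifitm3 and 0 of 854 in Ifitm6 also occurred in another gene. Besides the members themselves, those genes were Gm11951, Gm2840, Gm45308, Gm45432, Gm45717, Gm7676 and Gm8865, and each of these 7 was listed at 0 counts in all 10 libraries. The expected counts of the 4 members were whole numbers in all 10 libraries. How many reads could have come from a near-identical gene was not tested.

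Ifitm1 was the member that separated the arms. In OKS + DsRed it was at 3.1, 5.29, 18.94, 19.87 and 41.39 TPM at days 0, 1, 3, 5 and 7, from 1, 2, 8, 8 and 23 reads. In OKS + FoxO6 it was at 44.6, 86.77, 107.47, 178.68 and 142.88 TPM on the same days, from 32, 44, 67, 104 and 73 reads. The arms did not overlap, but the gap was small. The highest OKS + DsRed library was that of day 7, at 41.39 TPM from 23 reads. It lay just under the lowest OKS + FoxO6 library, that of day 0, at 44.6 TPM from 32 reads. The share of all genes whose arms also did not overlap was not counted.

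The TPM ratio of OKS + FoxO6 to OKS + DsRed for Ifitm1 was 14.4 at day 0, with a 95% counting interval from 2.40 to 586, and 16.4 at day 1, with an interval from 4.28 to 140. Here and in the rest of the text, these are exact Clopper-Pearson intervals from the reads of both libraries, which cover counting error only and not the spread between cultures. The first 2 ratios rest on 1 and 2 control reads, so their size is hardly fixed by the data. The ratio was 5.67 at day 3 (2.72 to 13.7), 8.99 at day 5 (4.40 to 21.4) and 3.45 at day 7 (2.14 to 5.78). All 5 intervals lay above a ratio of 2.

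On the log2(TPM + 1) scale, which understates the change of genes with low levels, the differences of Ifitm1 were 3.48, 3.80, 2.44, 3.11 and 1.76 at days 0, 1, 3, 5 and 7. Across the 15011 genes, a difference above 1 in this direction, called 2-fold here, was found in 10.6%, 8.10%, 8.21%, 10.3% and 8.30% of genes on the same days. It was found on all 5 days in 72 genes (0.480%), of which Ifitm1 was 1. The mean difference of Ifitm1 over the 5 days was 2.92, the 19th highest of the 15011. This rank describes a gene picked with its pattern in view and lends no support to it.

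**Figure D1:**
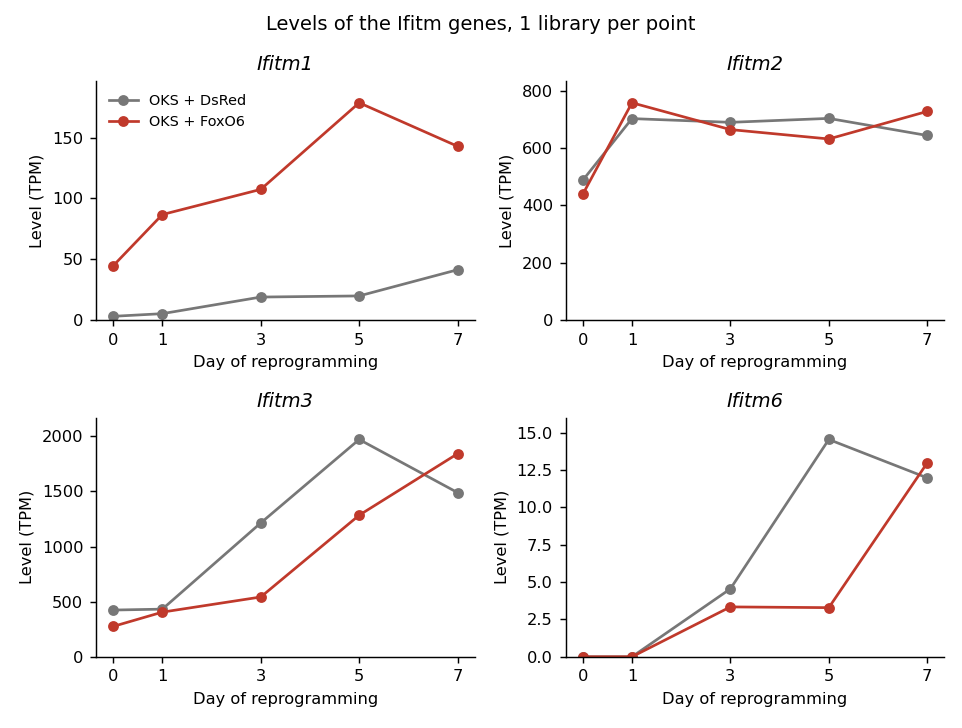
Level in TPM (vertical axes, each from 0) of the 4 Ifitm genes against the day of reprogramming, with grey points for OKS + DsRed and red points for OKS + FoxO6, 1 library per point and no error bars because there are no replicates. The lines of Ifitm1 stay apart, those of Ifitm2 run together, those of Ifitm3 cross between days 5 and 7, and Ifitm6 does not exceed 14.55 TPM.

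Ifitm2 was abundant in both arms and nearly level after day 0. It was at 487.2, 702.2, 689.19, 702.93 and 643.35 TPM at days 0, 1, 3, 5 and 7 of OKS + DsRed, and at 438.29, 757.38, 663.92, 631.24 and 727.28 TPM in OKS + FoxO6. Both arms had their lowest level at day 0, and the arms overlapped over the rest of their range. The ratio between the arms was between 0.898 (day 5) and 1.13 (day 7), and each of the 5 counting intervals held 1. From 187 to 387 reads stood behind each value, and the widest interval, that of day 0, ran from 0.745 to 1.09, so that a 2-fold difference on any of these days lies outside the counting error of these libraries.

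Ifitm3 reached the highest levels of the family, and its order between the arms turned over the time course. It was at 423.9, 432.16, 1213.88, 1971.02 and 1489.01 TPM at days 0, 1, 3, 5 and 7 of OKS + DsRed. In OKS + FoxO6 it was at 275.29, 405.04, 542.3, 1284.24 and 1841.83 TPM. The control arm was highest at day 5 and lower again at day 7, while the OKS + FoxO6 arm was still highest at its last day, and the ranges overlapped.

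At day 3 the ratio of OKS + FoxO6 to OKS + DsRed for Ifitm3 was 0.447 (95% counting interval 0.388 to 0.513), which is a level 2.24-fold lower (1.95 to 2.58). It was also below 1 at day 0, at 0.649 (0.525 to 0.805), and at day 5, at 0.652 (0.591 to 0.719). At day 1 the ratio was 0.937 and its interval, 0.768 to 1.14, held 1. At day 7 the level was higher with FoxO6, with a ratio of 1.24 (1.13 to 1.35). In log2 this difference was 0.31, and it was 0.20 relative to the 500 genes nearest to Ifitm3 in effective length, whose median was 0.10 higher with FoxO6 on that day. Only the log2 difference of day 3, -1.16, was past 2-fold, in the direction that 11.8% of all genes shared on that day.

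**Figure D2:**
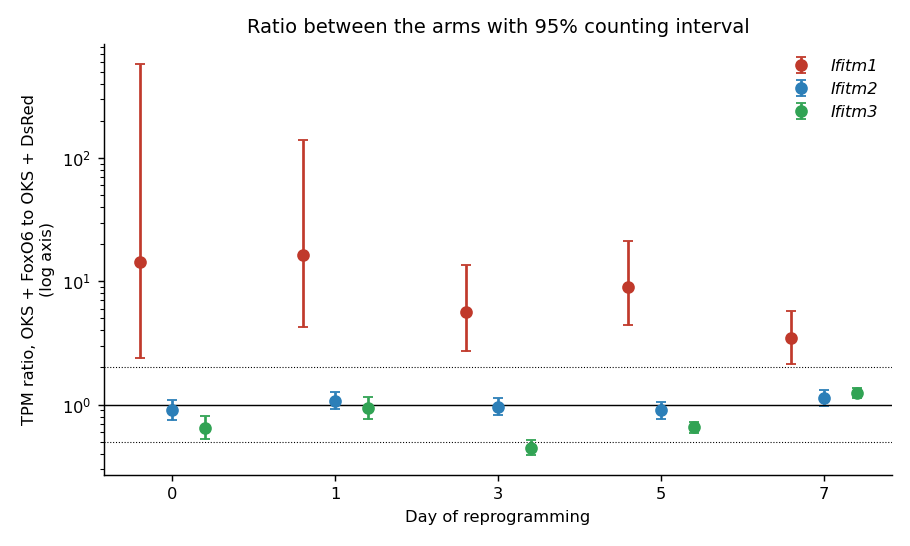
TPM ratio of OKS + FoxO6 to OKS + DsRed (log axis) against the day for Ifitm1, Ifitm2 and Ifitm3, with bars for the 95% counting interval, a solid line at 1 and dotted lines at 2-fold higher and lower. All 5 intervals of Ifitm1 lie above 2, all 5 of Ifitm2 hold 1, and those of Ifitm3 lie below 1 at days 0, 3 and 5 and above 1 at day 7.

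Ifitm6 was close to the limit of these libraries. It had 0 reads at days 0 and 1 of both arms, which allows up to 3 reads, or 1.35 to 2.48 CPM (counts scaled to the library total), in each of these libraries. At days 3, 5 and 7 it had 2, 6 and 7 reads in OKS + DsRed (4.55, 14.55 and 11.98 TPM) and 2, 2 and 7 reads in OKS + FoxO6 (3.34, 3.29 and 12.98 TPM). At day 5 the ratio of OKS + FoxO6 to OKS + DsRed was 0.226, but with 2 and 6 reads its interval, 0.0223 to 1.26, held 1. At day 7 the ratio was 1.08 (0.324 to 3.62). A difference between the arms was therefore not detectable at this depth. Against day 0 set to 3 reads, the counts per library total were 1.51-fold higher at day 7 in OKS + DsRed and 3.33-fold higher in OKS + FoxO6. These folds take the 7 reads of day 7 as exact and leave out their counting error, so they are not lower limits.

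Within each arm, every later library was set against the arm's own day 0, so the 4 comparisons of an arm share that library. Ifitm3 was 2.86-fold its day 0 level at day 3 of OKS + DsRed (95% counting interval 2.41 to 3.42), 4.65-fold at day 5 (3.94 to 5.52) and 3.51-fold at day 7 (2.98 to 4.17). In OKS + FoxO6 it was 1.97-fold at day 3 (1.64 to 2.37), 4.67-fold at day 5 (3.97 to 5.50) and 6.69-fold at day 7 (5.72 to 7.87). Read this way, the 2 arms had nearly the same fold at day 5, and the day 0 library with FoxO6 was the lowest of all 10. The share of all genes more than 2-fold above day 0 was 21.5%, 22.8% and 21.0% at days 3, 5 and 7 of OKS + DsRed, and 13.2%, 16.3% and 14.4% in OKS + FoxO6.

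From day 0 to day 1 the level of Ifitm3 was multiplied by 1.02 in OKS + DsRed (0.827 to 1.26) and by 1.47 in OKS + FoxO6 (1.20 to 1.80), with intervals that overlap. From day 1 to day 3 its level was multiplied by 2.81 in OKS + DsRed (2.39 to 3.32) and by 1.34 in OKS + FoxO6 (1.12 to 1.60). From day 3 to day 5 the factors were 1.62 (1.46 to 1.81) and 2.37 (2.08 to 2.70). From day 5 to day 7 they were 0.756 (0.687 to 0.831) and 1.43 (1.31 to 1.58). The intervals of the arms did not overlap at the 3 steps after day 1. Of these 3, the largest was from day 1 to day 3 in the control and from day 3 to day 5 with FoxO6.

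Ifitm1 also had higher levels at later days. In OKS + FoxO6 it was 1.95-fold its day 0 level at day 1 (1.21 to 3.17), 2.41-fold at day 3 (1.56 to 3.80), 4.01-fold at day 5 (2.67 to 6.16) and 3.20-fold at day 7 (2.09 to 5.02). In OKS + DsRed the single read of day 0 hardly fixes the folds. The fold of day 7 was 13.4, with an interval from 2.17 to 550. Those of days 3 and 5, 6.11 and 6.41, had intervals that held 1. Ifitm2 had its largest part of the change by day 1, at 1.44-fold (1.20 to 1.74) in OKS + DsRed and 1.73-fold (1.48 to 2.02) in OKS + FoxO6, and no later step between neighbouring days had an interval that left out 1. Shares of all genes above 2-fold at day 1 were 15.6% and 9.24%, and Ifitm2 was below 2-fold at all later days.

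TPM is scaled to transcript length, so levels of different members can be set side by side within a library. Ifitm2 was the most abundant member at days 0 and 1 of both arms, with Ifitm3 to Ifitm2 ratios of 0.870 and 0.615 in OKS + DsRed and 0.628 and 0.535 in OKS + FoxO6. At day 0 of OKS + DsRed the interval, 0.702 to 1.08, held 1, so these 2 neighbours in the order did not differ beyond counting error. The order then turned. At day 3 the ratio was 1.76 (1.53 to 2.03) in OKS + DsRed but still 0.817 (0.702 to 0.949) in OKS + FoxO6. At day 5 it was 2.80 (2.45 to 3.22) and 2.03 (1.80 to 2.31), and at day 7 it was 2.31 (2.05 to 2.62) and 2.53 (2.25 to 2.85). This ratio uses no library total, and it gave the same order of the arms as the levels of Ifitm3 did at days 3 and 5.

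Ifitm1 was a small part of the family in the control and a larger one with FoxO6. It made up 0.339% to 1.89% of the summed TPM of the 4 genes in OKS + DsRed and 5.24% to 8.52% in OKS + FoxO6. Its ratio to Ifitm2 was 0.0064, 0.0075, 0.0275, 0.0283 and 0.0643 over the days of OKS + DsRed and 0.102, 0.115, 0.162, 0.283 and 0.197 in OKS + FoxO6. The lowest ratio with FoxO6, at day 0 (0.0683 to 0.147), and the highest of the control, at day 7 (0.0403 to 0.0980), have counting intervals that overlap. Within each day the intervals of the arms did not overlap. The family as a whole made up between 0.0758% (day 0 with FoxO6) and 0.273% (day 7 with FoxO6) of all TPM, and Ifitm6 never exceeded 0.548% of the family.

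**Figure D3:**
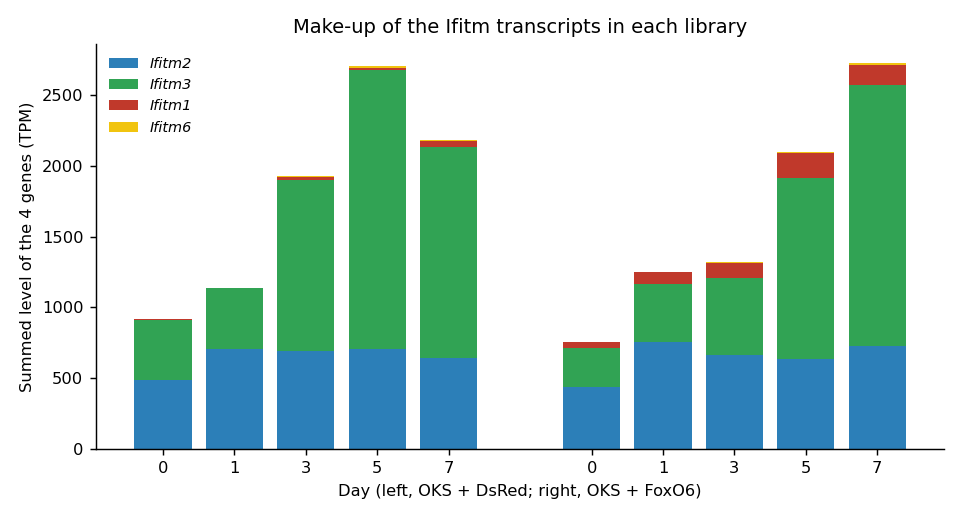
Summed level in TPM (bars from 0) of the 4 Ifitm genes in each of the 10 libraries, OKS + DsRed on the left and OKS + FoxO6 on the right, by day and split by gene. The Ifitm2 segment varies little after day 0, the Ifitm3 segment makes most of the growth, and the Ifitm1 segment reaches 8.52% of the sum at day 5 with FoxO6.

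Interferon ligands, which would start the response that Ifitm genes are named for, were hardly seen. None of the 21 ligand genes reached a mean of 1 TPM, Ifnb1 was listed at 0 in all 10 libraries, and the 21 together had at most 2.69 expected counts in a library. Of the 12 receptors and signal transducers, 11 were measured, and none was past 2-fold between the arms at days 0 and 1, when 6.41% to 10.6% of all genes were in each direction, so 0 of 11 is near that background. At days 3, 5 and 7, 3, 2 and 1 of the 11 were more than 2-fold lower with FoxO6, and none was higher, beside 11.8%, 11.4% and 16.5% of all genes lower, so the counts of days 5 and 7 were near that background. Stat2, a transducer of type I interferon signals, was at 14.35, 34.09, 161.97, 299.78 and 102.12 TPM over the days of OKS + DsRed and at 16.94, 36.37, 61.46, 139.99 and 70.6 TPM in OKS + FoxO6. The receptor chain Ifnar2, at 46.25 to 106.9 TPM, and the kinase Jak1, at 50.48 to 134.24 TPM, stayed within 2-fold between the arms on each day.

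All 38 genes of a list of the type I interferon response, which holds no Ifitm gene, were measured. At days 3, 5 and 7, 29, 16 and 6 of them were more than 2-fold lower with FoxO6, and 0, 0 and 3 were more than 2-fold higher, beside 11.8%, 11.4% and 16.5% of all genes lower on those days. At days 0 and 1, 4 and 5 were lower and 3 and 5 higher, beside 6.41% and 9.43% of all genes lower. The shares of all genes higher were 10.6%, 8.10% and 8.30% at days 0, 1 and 7. The median difference of the list was 0.01, -0.34, -1.63, -0.89 and -0.25 at days 0, 1, 3, 5 and 7, and that of all 15011 genes was 0.09, 0.00, 0.00, 0.00 and -0.14.

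Ifitm3 lay inside the range of this list on every day, with 26 of the 38 genes below its difference at day 3 and 32 below it at day 7. Ifitm1 lay above all 38 at days 0, 1, 3 and 5, and above 37 of them at day 7, where Mx2, an antiviral GTPase, had a difference of 1.78. Ifitm2 lay above 37 at day 3, where Trim25, a ubiquitin ligase of RNA sensing, was the exception. Among the most abundant genes of the list, Bst2, which tethers budding virus, had differences of -2.14, -1.08 and 0.09 at days 3, 5 and 7. Ly6e, a membrane-anchored antiviral protein, had -0.54, -0.93 and -0.09, and Oasl2, of the oligoadenylate synthetase family, had -4.25, -1.81 and -0.64. Oas2, of the same family, had -1.65, 0.12 and 1.25, so at day 7 it was higher with FoxO6, as Ifitm3 was.

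Of 30 genes of the interferon gamma response and antigen presentation, 26 were measured. At days 3, 5 and 7, 22, 26 and 22 of them were more than 2-fold lower with FoxO6, and 1, 0 and 0 were higher, beside 11.8%, 11.4% and 16.5% of all genes lower. The medians on these days were -2.79, -2.27 and -1.55. At days 0 and 1, 4 and 3 were lower and 4 were higher on each day, beside 6.41% and 9.43% of all genes lower and 10.6% and 8.10% higher. At days 5 and 7 both Ifitm3 and Ifitm2 lay above all 26. The class I heavy chain H2-K1 was at 2517.99 TPM at day 5 and 2272.96 at day 7 of OKS + DsRed, and at 299.89 and 696.91 TPM with FoxO6. Its light chain B2m had differences of -1.54 and -0.69 at these days, and Irgm1, a GTPase of cell-autonomous immunity, had -1.45 and -1.38. At day 7 these genes were thus lower with FoxO6 while Ifitm3 was not.

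Set against their own day 0, 34, 36 and 35 of the 38 type I genes were more than 2-fold higher at days 3, 5 and 7 of OKS + DsRed, and 28, 34 and 34 in OKS + FoxO6, beside 21.5%, 22.8% and 21.0% and 13.2%, 16.3% and 14.4% of all genes. Ifitm3 was in that direction on the same days, though at day 3 with FoxO6 its log2 difference, 0.98, stopped short of 2-fold. The medians of the list were 3.05, 4.09 and 3.22 in OKS + DsRed and 1.62, 3.08 and 2.64 in OKS + FoxO6, and the differences of Ifitm3 were 1.52, 2.21 and 1.81 and 0.98, 2.22 and 2.74.

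**Figure D4:**
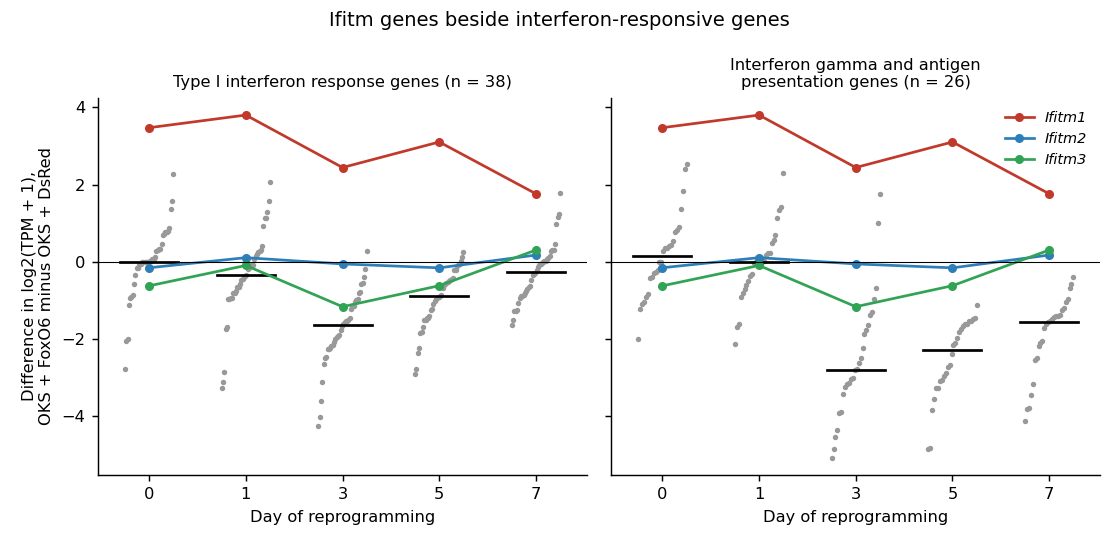
Difference in log2(TPM + 1), OKS + FoxO6 minus OKS + DsRed, against the day, with a grey point for each measured gene of the type I list (left, n = 38) and of the interferon gamma list (right, n = 26), black bars for the list medians and coloured lines for Ifitm1, Ifitm2 and Ifitm3. At day 3 the medians are -1.63 and -2.79 and Ifitm3 is at -1.16, while Ifitm1 stays at or above 1.76 on each day.

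All 8 genes of a list of enzymes and partners that act on Ifitm proteins were measured, and none was past 2-fold between the arms on any day. The share of all genes past 2-fold was 6.41% to 16.5% in each direction, so 0 of 8 is not far from the background. The ubiquitin ligase Nedd4, which marks Ifitm proteins for turnover, was at 395.32 to 738.26 TPM, and the segregase Vcp at 348.34 to 566.19 TPM. The tetraspanins Cd81 and Cd9 were at 520.8 to 901.12 and 340.09 to 601.23 TPM. Of 10 other genes with the same membrane domain, 4 were measured, at low levels, and all 10 together summed to 7.27 to 18.95 TPM in a library. Ifitm5, the bone-specific member next to the cluster, had a mean of 1.40 TPM.

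Ifitm1 and Ifitm3 are also known from primordial germ cells, and 10 genes of these cells were looked at, of which 5 were measured. At days 3, 5 and 7, 1, 4 and 2 of the 5 were more than 2-fold lower with FoxO6, and 1 (Dnd1 at day 3) was higher, beside 11.8%, 11.4% and 16.5% of all genes lower. At each of days 0 and 1, 1 of the 5 was more than 2-fold higher with FoxO6, as Ifitm1 was, namely Prdm1 at day 0, with a difference of 2.22, and Kit, the receptor of stem cell factor, at day 1, with 2.19 from 1 and 8 reads. At day 0, 2 of the 5 were lower, Dnd1 from 6 and 2 reads and Alpl from 2 and 0 reads, which is under the limit of 3 counts, and at day 1 none was. Of all genes, 10.6% and 8.10% were higher and 6.41% and 9.43% lower on these days. Alpl, the tissue-nonspecific alkaline phosphatase that marks germ cells and pluripotent cells, was at 2.95, 1.61, 22.83, 92.54 and 174.02 TPM in OKS + DsRed and at 0, 0.99, 5.01, 37.71 and 109.14 TPM in OKS + FoxO6. Prdm1, a repressor that specifies germ cells, did not exceed 9.48 TPM. The direction of Ifitm1 was therefore not that of most of these genes after day 1.

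The genes within 100 kb of the cluster were set beside Ifitm1. The files held 20 of them and 11 were measured. None of the 11 was more than 2-fold higher with FoxO6 at days 1, 3, 5 and 7, and 1, 1, 4 and 3 were more than 2-fold lower. Among all genes, 8.10%, 8.21%, 10.3% and 8.30% were higher and 9.43%, 11.8%, 11.4% and 16.5% lower on these days, so with 11 genes the absence of higher ones and the single lower ones are near the background. At day 0, 3 were higher, Gm15542, Ifitm5 and Ano9, each at 0 TPM in the control library and at 2.52 to 2.59 TPM with FoxO6, and 10.6% of all genes were higher on that day. The proteasome subunit Psmd13, the most abundant neighbour, was at 102.09 to 160.37 TPM and within 2-fold on each day. Sigirr, an inhibitor of interleukin receptors, was lower with FoxO6 on all days, with differences of -1.07, -0.41, -2.01, -1.23 and -0.69.

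Over the 10 libraries, Pearson's r of log2(TPM + 1) was taken between each member and 11490 genes with a mean of at least 5 TPM. These correlations are descriptions, since the points share arms, cultures and days. Ifitm1, Ifitm2 and Ifitm3 were not much like each other. Their r was 0.29 for Ifitm1 and Ifitm2, 0.29 for Ifitm1 and Ifitm3 and 0.52 for Ifitm2 and Ifitm3. The values of Ifitm1 at days 0 and 1 of OKS + DsRed rest on 1 and 2 reads. With Foxo6, r was 0.83 for Ifitm1, 0.00 for Ifitm2 and -0.22 for Ifitm3.

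The 5 genes most like Ifitm1 were Kng2 (r = 0.96), Il17rd (0.96), Erbb3 (0.96), Rab31 (0.95) and Lbp (0.94). Kng2 encodes a kininogen and was at 0 to 11.53 TPM in OKS + DsRed and 8.99 to 92.84 TPM in OKS + FoxO6. Il17rd, which dampens fibroblast growth factor signals, was at 4.93 to 16.46 and 14.33 to 50.79 TPM, and the receptor Erbb3 at 0.78 to 5.01 and 3.5 to 22.7 TPM. For all 3 the ranges of the arms overlapped, while for Ifitm1 they were just apart. Rab31, a small GTPase of vesicle traffic, was at 32.19 to 60.51 and 63.39 to 103.07 TPM and did not overlap. Lbp, which binds lipopolysaccharide, was at 0 to 13.67 and 4.25 to 112.04 TPM.

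Those most like Ifitm3 were Bst2 (r = 0.99), Epb41l4b (0.98), Oas1g (0.98), Alpl (0.97) and Plekha6 (0.97). Bst2 was at 35.99, 39.73, 277.26, 605.14 and 521.13 TPM in OKS + DsRed and at 33.69, 35.01, 61.93, 285.42 and 554.38 TPM in OKS + FoxO6. It placed the 10 libraries in the same order as Ifitm3 did. Oas1g, another oligoadenylate synthetase, was at 0 TPM at day 0 of both arms and at 66.55 and 52.25 TPM at day 7. Among those most like Ifitm2 were Trmt1l (0.94), Pak4 (0.92), Notch4 (0.91) and Lace1 (0.90). Without the day 0 libraries, none of these 4 was among the 5 most like Ifitm2.

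**Figure D5:**
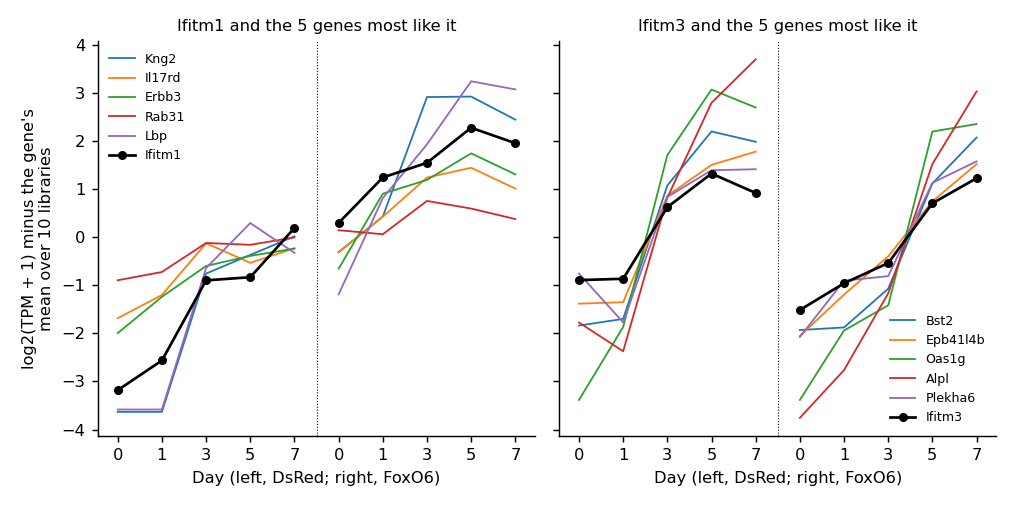
Level as log2(TPM + 1) minus the gene's own mean over the 10 libraries, by day, for Ifitm1 and Ifitm3 (black) and the 5 genes most like each (coloured), with OKS + DsRed to the left of the dotted line and OKS + FoxO6 to the right. The genes beside Ifitm1 are higher on the right, and those beside Ifitm3 start low in each arm, with Bst2 at r = 0.99.

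Markers of other cells that express Ifitm genes were measured beside these results. Of 13 macrophage and leukocyte markers, 5 to 9 were at 0 in each library, and the sum of the 13 was 18.2 to 61.13 TPM in OKS + DsRed and 23.9 to 31.58 TPM in OKS + FoxO6. The lysosomal protein Cd68 was the most abundant of them, at 7.95 to 52.57 TPM. Lyz2, Itgam and Cd14 reached at most 6.17, 4.36 and 3.07 TPM, and Ptprc, Adgre1 and Csf1r were at or below 0.60 TPM in each library. Of 10 endothelial markers, 1 to 6 were at 0 in a library, and their sum was 26.69 to 61.08 TPM in OKS + DsRed and 37.81 to 143.09 TPM in OKS + FoxO6. The sum was higher with FoxO6 on all 5 days, as Ifitm1 was, but the members of the list did not move together on all days. The receptors Tek, at 16.77 to 47.27 and 27.61 to 103.66 TPM, and Kdr, at 1.23 to 10.82 and 1.7 to 44.62 TPM, made up most of the sum, while Cdh5 was at or below 1.24 TPM and Pecam1 at or below 5.73 TPM. At days 0, 1 and 3, Tek had differences of 0.69, 1.27 and 1.01 and Kdr -0.20, -0.03 and 2.31. At day 3, 4 of the 5 measured markers were higher with FoxO6 and 1 was lower. Of these, 2 were more than 2-fold higher and 0 more than 2-fold lower, beside 8.21% and 11.8% of all genes. At days 5 and 7, Kdr had differences of 3.85 and 3.29 and Tek 1.14 and 0.55, but Pecam1 had -0.57 and -1.94 and Vwf, a clotting factor of endothelium, -1.28 and -1.58, the last 2 genes from at most 18 reads in a library. The median of the 5 measured markers was 0.02, 0.72, 0.65, -0.57 and 0.55 at days 0, 1, 3, 5 and 7. The part of such cells in the level of Ifitm1 was not tested.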

How the data were processed

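Bulk RNA was sequenced once per arm and day, in 10 libraries grouped by the titles in the labels. RSEM, with Bowtie2 as its aligner, was run by the authors on the GENCODE M13 transcripts (mm10, GRCm38), and the versions of both tools were not given in the sources used here. They deposited expected counts, which RSEM estimates per gene without normalization. The TPM values were deposited by the authors in the same files and were also made by RSEM, scaled to effective length and library. FPKM values were deposited beside them by the authors and were not used. The study's methods name a TruSeq kit and the labels a VAHTS kit for the libraries, and neither source states that strand was kept. The total expected counts limit the precision of low genes, and intervals cover counting error only.

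Python 3.11.15 with numpy 2.4.6, pandas 2.3.3 and scipy 1.17.1 computed log2 differences of TPM with 1 added (the pseudocount), over genes whose mean TPM reached 1. A difference past 1 was called 2-fold. Ratios of TPM have exact Clopper-Pearson intervals (95%), conditional on the reads of both libraries, and a count of 0 was taken to allow 3 counts. The 2-fold call and the intervals were tested on counts simulated for a pair of libraries, with no spread between cultures. The intervals were tested only for genes with reads in both libraries, and the rule of 3 counts was not tested. With 1 library per arm and day there was no test of the condition, and no p-value was computed. R 4.3.3 with edgeR 4.0.16 gave TMM factors for an alternative in CPM (counts scaled to the library total), with a prior count of 2. The other alternatives were a pseudocount of 0.1, centring on the 500 genes nearest in effective length, a mean TPM of at least 5, all genes with a read in either library, the sum of Ifitm1, Ifitm2 and Ifitm3, Spearman correlation and the 8 libraries after day 0. Coordinates and transcripts are from GENCODE M21, which is not the authors' release, and gene starts are from RefSeq on GRCm38.p6.

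The members and the gene lists were chosen with earlier results of these data known. The genes named are the 4 members, the 4 genes of highest mean TPM in each list, the 5 genes of highest Pearson r to Ifitm1, Ifitm2 and Ifitm3, genes within 100 kb of the cluster and Foxo6. Mx2, Trim25, Ptprc, Adgre1, Csf1r, Pecam1 and Cdh5 were named after their values were seen. Some genes that the rule names are not reported here. Matplotlib 3.10.9 drew the plots.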

Additional observations from a re-analysis of the deposited data

Results flagged for a closer look

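The difference between the arms in Ifitm3 turned with the day. The TPM ratio of OKS + FoxO6 to OKS + DsRed was 0.649, 0.447 and 0.652 at days 0, 3 and 5, but 1.24 at day 7, and each of these 4 counting intervals left out 1. The change of direction between days was not tested, since each arm has 1 library per day, and what lies behind it was not tested either.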

How the results depend on the processing

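The 53 differences of the members and of their sum were recomputed 146 times in all, and 142 of the values stayed inside the counting interval of the difference first given. The other 4 came from CPM with TMM. The day 7 difference between the arms was then 0.47 for Ifitm3 (0.31 in TPM, and 0.20 when centred on genes of like length) and 0.47 for the sum of Ifitm1, Ifitm2 and Ifitm3 (0.32). The sum in OKS + DsRed was then 0.87 above day 0 at day 3 (1.07 in TPM), which is short of 2-fold, and 1.37 above it at day 5 (1.56). No called difference changed sign, and none of Ifitm1, Ifitm2 or Ifitm3 taken singly gained or lost a 2-fold call. The counts of interferon genes lower with FoxO6 at days 3, 5 and 7 stayed within 1.5 times under all 4 alternatives. At days 0 and 1, a pseudocount of 0.1 gave 7 and 9 in place of 4 and 5 type I genes, and 5 in place of 3 interferon gamma genes at day 1, and CPM with TMM gave 2 in place of 4 interferon gamma genes at day 0. With a mean TPM of at least 5, 24 of the 26 counts over all genes were smaller by more than 1.5 times, for example 904 in place of 1587 higher at day 0 and 1454 in place of 2474 lower at day 7, as fewer genes were counted, and the filter on genes with a read gave 1876 in place of 1237 genes lower at day 1 than at day 0 of OKS + FoxO6. Of the 5 genes most like each of these 3 members, Spearman's rho kept 1 for each member, and the 8 libraries after day 0 kept 2 for Ifitm1, 0 for Ifitm2 and 2 for Ifitm3. Under CPM with TMM, 2 were kept for Ifitm2. Ifitm1 at days 0 and 1 of OKS + DsRed and Ifitm6 in all libraries rest on at most 7 reads each, and no difference here has a replicate check. The day pairs the arms, but no model of arm and day was fitted, since the members were chosen on these values.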
